A study of Rattus norvegicus with 3 samples.

Results

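Vesicular neurotransmitter transporters are the membrane proteins that fill synaptic vesicles, and the one a neuron makes largely sets which transmitter it can release. The set examined here is Slc17a7, Slc17a6 and Slc17a8 (vesicular glutamate transporters VGLUT1, VGLUT2 and VGLUT3), Slc32a1 (the vesicular GABA transporter, which also loads glycine), Slc18a2 (the vesicular monoamine transporter VMAT2), Slc18a3 (the vesicular acetylcholine transporter) and Slc30a3 (ZnT3, which loads zinc into glutamatergic vesicles). Genes were taken by symbol from the deposited tables, which gave 6 of the 7 listed genes among 30957, each with 1 gene ID. Slc18a3 matched no row and was not analysed here. The samples were pieces of motor cortex from 3 male rats of the Sprague-Dawley strain (animals 32, 39 and 68), an outbred laboratory stock, labelled with a time of 8 weeks and with no treatment. All 3 form 1 group, with 1 mRNA library per animal, so the levels of the transporters within the tissue and their spread between animals could be described, and no treatment could be compared. Values are FPKM (fragments of a gene scaled by its length and by the size of the library) as the authors deposited them, which is a scale on which genes of different length can be set side by side.

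All of these transporters depend on the vacuolar ATPase, a proton pump that acidifies the vesicle and charges its membrane. In rodent forebrain, Slc17a7 is known as the transporter of cortical and hippocampal pyramidal neurons, Slc17a6 as that of thalamic and brainstem neurons, and Slc17a8 as a transporter of scattered cells that also use another transmitter, such as cholinergic interneurons of the striatum and serotonergic neurons. Slc18a2 is made in dopaminergic, noradrenergic, serotonergic and histaminergic neurons, whose cell bodies lie outside the cortex and send axons into it, so their mRNA is mostly not in the dissected tissue.

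The libraries held about 15460924 to 17670986 fragments, inferred from genes with short loci, so that a gene at 1 FPKM rested on 15.5 to 17.7 fragments per kilobase. Markers of the labelled tissue were present. All 9 glutamatergic neuron genes found, Slc17a7 among them, had a mean of at least 1 FPKM, led by Nrgn, Camk2a, Slc17a7 and Neurod6. Of 12 GABAergic neuron genes, Slc32a1 among them, 11 reached that mean and Npy was listed at 0 in all animals. Over the whole table, 13378 of 30957 genes reached it. Animal 68 stood apart before any transporter was considered. Its 11 choroid plexus genes summed to 8285 FPKM against 61.0 in animal 32 and 713 in animal 39, its 9 oligodendrocyte genes to 9251 against 3433 and 5297, and its 11 striatal genes to 284 against 160 and 136. Results are therefore also given without animal 68 where they rest on it. Whether an animal, its dissection or its library differs cannot be told apart here, nor can fewer cells of a type from less RNA per cell.

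The 3 vesicular glutamate transporters are close relatives in 1 gene family, and their mRNA levels in the motor cortex were far apart. Slc17a7 (chromosome 1, 101161372 to 101173195 in Rnor_6.0) measured 521, 537 and 495 FPKM in animals 32, 39 and 68 (517 ± 21.1, SD, n = 3). It ranked 63, 54 and 63 among all 30957 genes in these animals and differed by at most 1.08-fold between them. Slc17a6 (chromosome 1, 106998544 to 107038706) measured 4.93, 2.43 and 1.33 FPKM (2.89 ± 1.84). Slc17a8 (chromosome 7, 30216104 to 30274984) measured 0.401, 0.901 and 2.58 FPKM (1.29 ± 1.14). Animal 32 was thus highest for Slc17a6 and lowest for Slc17a8, and animal 68 the reverse, while the lowest Slc17a7 value stood far above every value of both relatives. Without animal 68 the mean was 3.68 FPKM for Slc17a6 and 0.651 FPKM for Slc17a8, and without animal 32 it was 1.88 FPKM for Slc17a6 and 1.74 FPKM for Slc17a8.

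Slc17a7 held 99.0, 99.4 and 99.2% of the FPKM summed over the 3 vesicular glutamate transporters (99.2 ± 0.199%, SD, n = 3). Slc17a6 held 0.937, 0.449 and 0.266% and Slc17a8 0.0763, 0.167 and 0.517%. The order of these minor forms therefore changed between animals: Slc17a6 exceeded Slc17a8 by 12.3-fold in animal 32 and 2.69-fold in animal 39, and was at 0.515 of it in animal 68. At the inferred depths Slc17a6 rested on 81.5, 37.5 and 23.5 fragments per kilobase of gene model in animals 32, 39 and 68. Over a single kilobase, exact Poisson 95% intervals would run from 64.8 to 101 in animal 32, from 26.5 to 51.6 in animal 39 and from 14.97 to 35.1 in animal 68. For Slc17a8 the same intervals ran from 2.59 to 13.9, from 7.60 to 23.4 and from 33.3 to 60.9. In both genes the intervals of animals 32 and 68 did not overlap. These intervals cover counting error only and are not scaled for the depth of each library. Non-overlap is not particular to these genes. Its share over all genes was not computed, so it is not read as a result about them. For Slc17a7 the intervals of animal 39 (8120 to 8478) and animal 68 (8561 to 8929) did not overlap either, although its FPKM was lower in animal 68.

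The stretches of 250 bases before the transcription starts of these 3 genes are shown because the same family spans the widest range of levels here. They come from RefSeq in build GRCr8, on the strand of the gene and 5′ to 3′, at chr1:104785955-104786204 (+) for Slc17a7, chr1:110348197-110348446 (+) for Slc17a6 and chr7:25935411-25935660 (-) for Slc17a8, coordinates that do not correspond to the Rnor_6.0 positions above. Capitals mark matches on either strand to 5 motifs. These were the GC box, searched as GGGCGG, the cAMP response element, searched as TGACGTCA, the E-box, searched as CACGTG, the CCAAT box, searched by the letters of its name, and the TATA box, searched as TATAAA.
Slc17a7: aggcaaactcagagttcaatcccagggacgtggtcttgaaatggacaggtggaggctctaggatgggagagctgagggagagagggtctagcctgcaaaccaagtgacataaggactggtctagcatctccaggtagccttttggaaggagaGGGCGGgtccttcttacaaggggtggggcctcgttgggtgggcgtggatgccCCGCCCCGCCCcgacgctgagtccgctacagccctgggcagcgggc
Slc17a6: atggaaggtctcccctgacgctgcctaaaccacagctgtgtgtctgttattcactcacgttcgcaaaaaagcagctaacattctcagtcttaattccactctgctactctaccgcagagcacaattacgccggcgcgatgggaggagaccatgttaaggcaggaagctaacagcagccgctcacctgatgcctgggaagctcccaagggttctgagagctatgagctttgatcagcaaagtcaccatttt
Slc17a8: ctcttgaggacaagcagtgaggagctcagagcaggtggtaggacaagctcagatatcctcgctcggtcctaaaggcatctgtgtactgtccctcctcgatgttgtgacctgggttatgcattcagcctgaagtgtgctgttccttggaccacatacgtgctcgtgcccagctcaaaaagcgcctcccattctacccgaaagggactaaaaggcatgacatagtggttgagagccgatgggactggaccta
The Slc17a7 window held 3 GC boxes, which began 98, 46 and 41 bases before the start, the last 2 sharing a base. The Slc17a6 and Slc17a8 windows held no match to any of the 5 motifs. Of 33469 rat promoter windows of the same length, 30.5% held a GC box, 34.0% a CCAAT box, 12.9% a TATA box, 5.59% the E-box and 1.59% the cAMP response element. The GC content was 61.2% for Slc17a7, 50.8% for Slc17a6 and 53.2% for Slc17a8, beside a median of 51.2% over all windows. The CpG dinucleotides numbered 10, 9 and 8, beside a median of 5. The Slc18a2 window, not printed here, had a GC content of 68% and held 2 GC boxes, 2 CCAAT boxes and 1 cAMP response element. Slc18a2 had the lowest mean of the set (0.0560 FPKM), so motif matches did not follow level across the members. The letters describe the sequence alone, and no binding was measured.

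Slc32a1, the transporter that fills inhibitory vesicles, was the steadiest member of the set. It measured 33.0, 32.3 and 31.2 FPKM in animals 32, 39 and 68 (32.2 ± 0.894, SD, n = 3; chromosome 3, 155103150 to 155107817), a range of 1.06-fold, and ranked 2400, 2451 and 2564 among all genes. The summed vesicular glutamate transporters exceeded Slc32a1 16.0-fold, 16.7-fold and 16.0-fold in these animals (16.2 ± 0.423). This ratio differed little between animals even though those animals differed widely in glial and choroid plexus genes. The ratio is one of mRNA, not of neurons or synapses. The 250 bases before the Slc32a1 start, shown as the counterpart of the excitatory transporters, lie at chr3:167686995-167687244 (+, GRCr8).
Slc32a1: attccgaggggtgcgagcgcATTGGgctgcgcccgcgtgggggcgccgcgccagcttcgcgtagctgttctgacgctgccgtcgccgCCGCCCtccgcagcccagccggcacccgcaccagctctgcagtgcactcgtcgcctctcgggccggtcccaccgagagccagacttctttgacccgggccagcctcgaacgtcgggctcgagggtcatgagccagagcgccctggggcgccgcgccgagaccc
This window had 34 CpG dinucleotides, more than 97.0% of all windows, and a GC content of 73.6%. It held 1 GC box and 1 CCAAT box, beginning 163 and 230 bases before the start.

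Slc32a1 was lower than the genes of GABA synthesis. Gad1 and Gad2, the enzymes that make GABA from glutamate, measured 67.9, 49.8 and 44.9 FPKM and 61.1, 55.0 and 58.4 FPKM in animals 32, 39 and 68. Gad1 stood at 1.68 ± 0.333 times the Slc32a1 level (SD, n = 3) and Gad2 at 1.81 ± 0.0935 times, so the ratio to Gad2 was nearly constant and that to Gad1 varied more. Both genes were higher than Slc32a1 in 3 of 3 animals. The log2 ratio of FPKM + 0.1 was tested within animals with limma over the whole table, which gave an adjusted p of 0.0028 for Gad1 and an adjusted p of 0.000144 for Gad2. Against Slc32a1, 93.5% of all genes tested differed by the same rule, and 12% were higher. Of the 11 other GABAergic neuron genes, 9 were lower in animal 68 than in animal 32, 1 was higher and Npy was listed at 0. Among all genes that averaged 1 FPKM or more, 57.1% were higher in animal 68 than in animal 32. The higher gene was Adarb2 (2.09, 3.76 and 4.30 FPKM). Among the lower ones, Sst measured 167, 193 and 103 FPKM, Pvalb 149, 110 and 72.2, Cck 200, 207 and 89.7 and Lamp5 139, 105 and 41.7, each lowest in animal 68.

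Slc30a3 (chromosome 6, 26642783 to 26650105) was the second most abundant member by its mean and differed most sharply by animal among the abundant ones. It measured 88.1, 85.0 and 30.9 FPKM in animals 32, 39 and 68 (68.0 ± 32.2, SD, n = 3). Animals 32 and 39 were alike and animal 68 stood 2.85-fold below the highest, at the level of Slc32a1 in the same animal. Without animal 68 the mean was 86.6 FPKM. Zinc is loaded into a subset of glutamatergic vesicles, so Slc30a3 and Slc17a7 are known to share terminals, yet Slc17a7 exceeded Slc30a3 5.91-fold and 6.31-fold in animals 32 and 39 and 16.0-fold in animal 68. The promoter window, shown because Slc30a3 is the abundant member that departs in 1 animal, lies at chr6:30997164-30997413 (+, GRCr8).
Slc30a3: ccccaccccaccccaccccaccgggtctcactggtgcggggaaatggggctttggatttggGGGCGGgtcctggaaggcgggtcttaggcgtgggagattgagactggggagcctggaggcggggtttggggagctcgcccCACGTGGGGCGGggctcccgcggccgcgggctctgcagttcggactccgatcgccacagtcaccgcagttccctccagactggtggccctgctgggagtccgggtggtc
It held 2 GC boxes, beginning 189 and 103 bases before the start, and 1 E-box at 109 bases, directly next to the nearer GC box. Its GC content was 70.4%.

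Other abundant zinc exporters of the SLC30 family differed less between animals. Slc30a9 measured 65.4, 62.3 and 63.9 FPKM in animals 32, 39 and 68, Slc30a4 25.5, 21.4 and 20.0, Slc30a5 16.8, 14.8 and 14.5 and Slc30a1, the exporter of the plasma membrane, 8.40, 8.30 and 10.1. Of the 10 family members found, 8 had a mean of at least 1 FPKM, and Slc30a8, known from pancreatic beta cells, was listed at 0 in every animal. Slc30a3 over Slc30a9 had a log2 ratio of 0.43, 0.45 and -1.04, which did not pass the test (limma, adjusted p = 0.935, n = 3). Without animal 68, which held the negative ratio, the mean ratio was 0.44 (limma, adjusted p = 0.000674). That p-value rests on animals 32 and 39 alone and is no added evidence of a difference. Slc30a3 exceeded Slc30a1 by 2.77 on the log2 scale (limma, adjusted p = 0.000105, n = 3), a call lost without animal 32 (2.47, adjusted p = 0.127, limma) or animal 39 (2.49, adjusted p = 0.153, limma), and the ratio was 3.36 without animal 68. Against Slc30a3, 82.6% of all genes tested differed by this rule. Metallothioneins, which bind zinc in the cytosol, were led by Mt3 at 176, 275 and 262 FPKM.

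The vesicular monoamine transporter was close to the detection limit. Slc18a2 (chromosome 1, 280423079 to 280457148) measured 0.0207, 0.0888 and 0.0583 FPKM in animals 32, 39 and 68 (0.0560 ± 0.0341, SD, n = 3). Multiplied by the inferred depths these values stood in the ratio of 1, 4 and 3, the smallest whole numbers of fragments that match them. If those were the fragments, exact Poisson 95% intervals would run from 0.0253 to 5.57, from 1.09 to 10.2 and from 0.619 to 8.77 fragments, so a difference between animals was not detectable at this depth. Its relative Slc18a1, known from chromaffin and other endocrine cells, measured 2.25, 2.79 and 1.54 FPKM and was above Slc18a2 in 3 of 3 animals.

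Genes of monoamine synthesis were low, and those set as partners of Slc18a2 lay above it. Th, the rate-limiting enzyme of catecholamine synthesis, measured 0.992, 0.769 and 0.417 FPKM, Ddc, the decarboxylase shared by dopamine and serotonin synthesis, 1.63, 1.24 and 1.06, and Tph2, the neuronal enzyme of serotonin synthesis, 0.820, 0.777 and 0.417. Each was higher than Slc18a2 in 3 of 3 animals and passed the test, as did 96% of all genes tested against Slc18a2. Other enzymes of these pathways did not all lie above it: Tph1, the form of tryptophan hydroxylase known from outside the brain, measured 0.0310, 0.0166 and 0 FPKM, below Slc18a2 in animals 39 and 68. Dbh, which makes noradrenaline, measured 0.310, 0.0473 and 0.104 FPKM, below Slc18a2 in animal 39, and Hdc, which makes histamine, was listed at 0 in animal 32 and measured 0.259 and 0.599 FPKM in animals 39 and 68. The dopamine and serotonin uptake carriers Slc6a3 and Slc6a4 were listed at 0 in all animals, and the noradrenaline carrier Slc6a2 in animals 39 and 68. The degrading enzymes Maoa and Maob, which non-monoaminergic cells also make, had means of 30.1 and 22.5 FPKM. Of the 11 mast cell and platelet genes, which mark other cells known to make Slc18a2, 6 were listed at 0 in every animal and the sums were 10.6, 13.8 and 13.0 FPKM, most of it from Kit, which is made in other cells too. A value listed at 0 is not read as absence, since such a value can be a failed estimate.

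For acetylcholine, whose vesicular transporter was not analysed here, the synthesising enzyme Chat measured 0.200, 0.181 and 0.981 FPKM and the choline uptake carrier Slc5a7 0.395, 0.134 and 1.86 FPKM in animals 32, 39 and 68. Both were highest in animal 68, as was Slc17a8. Of the other genes found in the acetylcholine list, Ache measured 5.31, 5.95 and 5.62 FPKM, highest in animal 39. Bche measured 1.46, 1.38 and 1.85 FPKM, highest in animal 68. Of the 11 striatal genes, 9 were highest in animal 68, beside 46.7% of all genes that averaged 1 FPKM or more. Among the 9 were Adora2a (1.05, 1.35 and 11.2 FPKM), Drd1 (2.67, 3.27 and 9.90) and Rgs9 (2.39, 3.15 and 18.2). Their part in the Slc17a8 level was not tested.

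**Figure D1:**
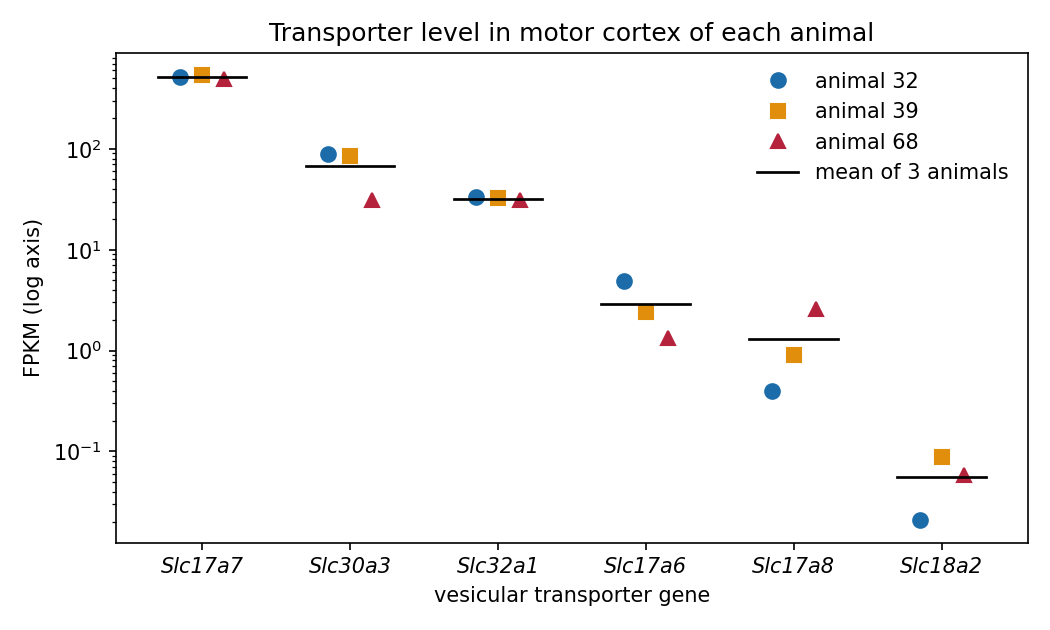
FPKM of the 6 transporter genes (log axis) in each of the 3 animals, with the mean as a black line. The 3 animals lie close together within Slc17a7 and within Slc32a1, Slc30a3 is low in animal 68, and Slc17a6 and Slc17a8 order the animals in opposite ways.

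**Figure D2:**
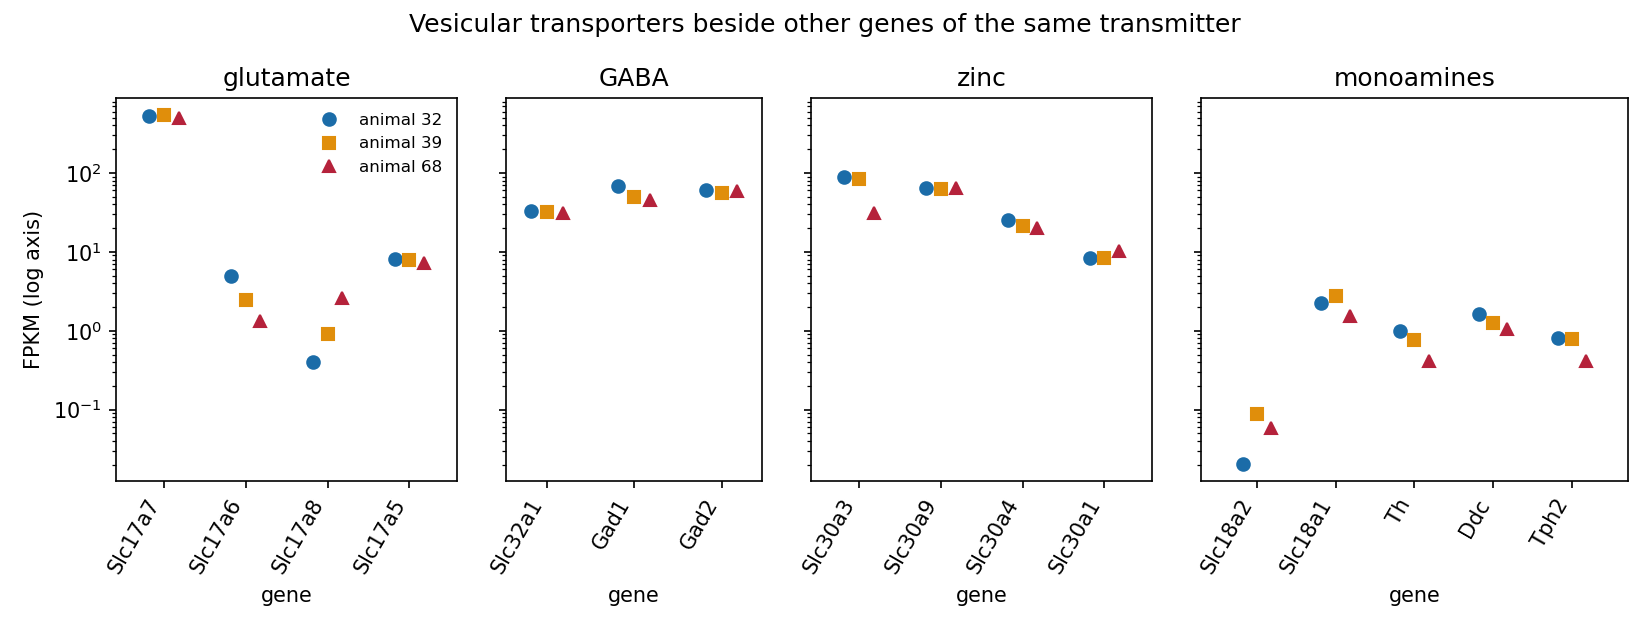
FPKM (log axis) of each vesicular transporter, first in its panel or, for glutamate, the first 3, beside other genes of the same transmitter in animals 32, 39 and 68. Slc32a1 lies below Gad1 and Gad2, Slc30a3 measured 30.9 FPKM in animal 68 against 88.1 and 85.0 in animals 32 and 39, and Slc18a2 lies below Slc18a1, Th, Ddc and Tph2.

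The order of the mean levels was Slc17a7, Slc30a3, Slc32a1, Slc17a6, Slc17a8 and Slc18a2. Of the 15 pairs of members, 13 differed (limma on the within-animal log2 ratio of FPKM + 0.1, 16412 genes tested in each fit, Benjamini-Hochberg adjusted p under 0.05). Most genes of a transcriptome differ in level from any one gene, so these counts say little about the members: by the same rule 99.8% of all genes differed from Slc17a7, 82.6% from Slc30a3, 93.5% from Slc32a1, 62.2% from Slc17a6 and 71.8% from Slc17a8. The neighbours Slc30a3 and Slc32a1 did not pass (log2 ratios 1.42, 1.39 and -0.01 in animals 32, 39 and 68; limma, adjusted p = 0.161, n = 3). Their values overlapped, since animal 68 had 30.9 FPKM of Slc30a3 and 31.2 FPKM of Slc32a1. Without animal 68 the ratio was 1.40 and passed (limma, adjusted p = 1.47e-06, animals 32 and 39 alone). The neighbours Slc17a6 and Slc17a8 did not pass either (3.33, 1.34 and -0.91, with limma adjusted p = 0.174, n = 3). Without animal 68 their ratio was 2.33 (limma, adjusted p = 0.0383, animals 32 and 39 alone). In both pairs the animal removed was the one with the opposing value. The p-values without it are therefore no added evidence of a difference.

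Among the pairs that passed, Slc17a7 exceeded Slc32a1 by 4.003 on the log2 scale (SE 0.07, adjusted p = 7.75e-07, limma), with 3.98, 4.05 and 3.98 in the 3 animals. It exceeded Slc30a3 by 3.07 (SE 0.31), Slc17a6 by 7.62 (SE 0.37) and Slc17a8 by 8.87 (SE 0.51), each in 3 of 3 animals. The SEs given here are moderated by limma, and the SDs of these ratios over the 3 animals were 0.80, 0.88 and 1.26. The log2 ratio of Slc17a7 to Slc30a3 was 2.56, 2.66 and 3.99 in animals 32, 39 and 68, and 2.61 without animal 68. That of Slc17a7 to Slc17a8 was 10.02, 9.07 and 7.53 in the same animals, and 9.54 without animal 68. Slc32a1 exceeded Slc17a6 by 3.62 (SE 0.36) and Slc17a8 by 4.87 (SE 0.51), the latter being 5.53 without animal 68 and 4.28 without animal 32. The lowest neighbours, Slc17a8 and Slc18a2, had log2 ratios of 2.05, 2.41 and 4.08, with a mean of 2.85, and 2.23 without animal 68. Their call was lost without animal 39 (mean 3.07, adjusted p = 0.277, limma) and with a pseudocount of 1 (1.01, adjusted p = 0.0576, limma), and that of Slc17a6 over Slc18a2 without animal 39 (4.28, adjusted p = 0.104, limma). The latter ratio was 4.10 with all animals and 3.46 without animal 32. When Slc30a3, Slc17a6, Slc17a8 or Slc18a2 served as the common reference, its own spread entered every ratio and limma estimated infinite prior degrees of freedom, which makes those p-values too small. With the prior held at 2.52 degrees of freedom, as in the fit for Slc17a7, 13 of 15 member pairs and 10 of 11 pairs with partner genes passed, as in the original fits, beside 74.8% of all genes against Slc30a3, 45.2% against Slc17a6, 58% against Slc17a8 and 94.2% against Slc18a2. The largest adjusted p among those 13 was then 0.0324 (limma), for Slc17a8 over Slc18a2, and that of Slc30a3 over Slc30a1 was 0.0170 (limma). With 3 animals the smallest p that exact sign flips can give is 0.25.

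**Figure D3:**
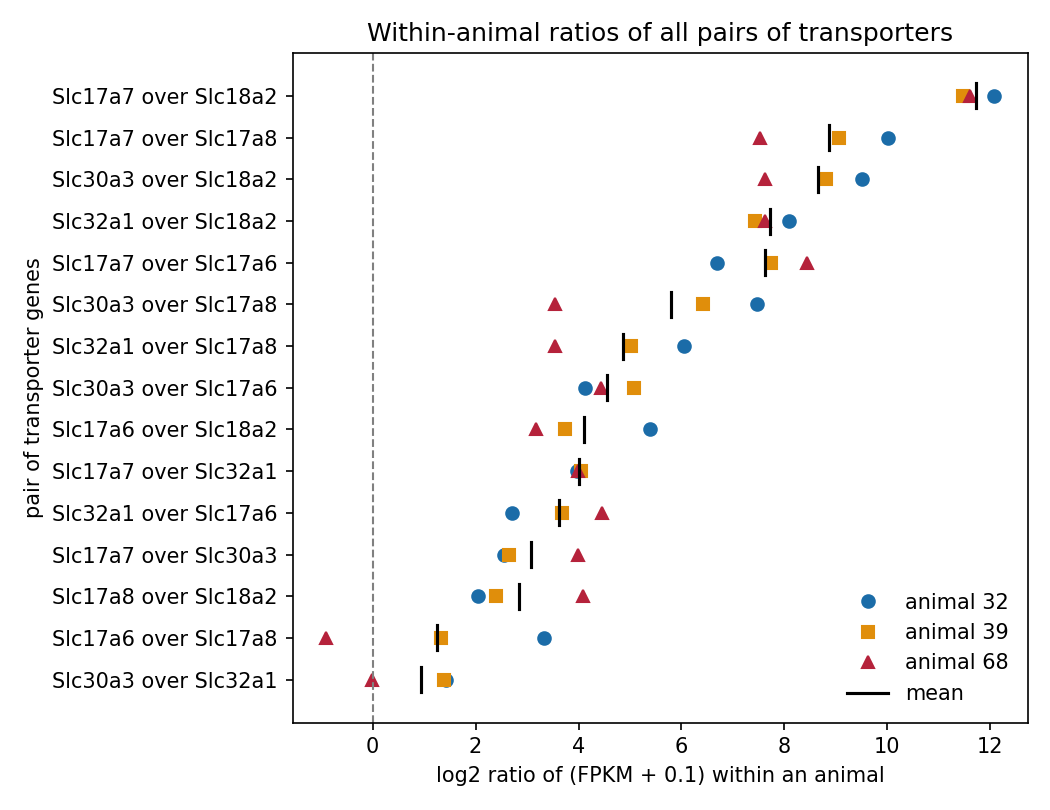
Log2 ratio of FPKM + 0.1 within each animal for the 15 pairs of transporter genes, with the mean as a black bar and a dashed line at equality. The 3 animals lie on the same side of equality in 13 pairs, and in animal 68 the ratio is -0.01 for Slc30a3 over Slc32a1 and -0.91 for Slc17a6 over Slc17a8.

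The spread between animals divided the members into steady and variable genes. On the log2(FPKM + 0.1) scale the SD over the 3 animals was 0.04 for Slc32a1 and 0.06 for Slc17a7, below the median of 0.20 over the 13378 genes that averaged 1 FPKM or more. It was 0.86 for Slc30a3, 0.91 for Slc17a6 and 1.22 for Slc17a8, larger than in 95.7, 96.4 and 98.4% of those genes. The SD of 0.32 for Slc18a2 is held down by the pseudocount, since all of its values lie below it. The log2 ratio of animal 68 to animal 32 on this scale was -1.51 for Slc30a3, -1.81 for Slc17a6 and 2.42 for Slc17a8, beside 0.07 for the median gene. Without a pseudocount, scaling to equal totals, with or without mitochondrially encoded genes, or by the median of ratios left each of these directions as it was, and the log2 ratio of animal 68 to animal 32 for Slc17a7 and Slc32a1 then lay between -0.18 and -0.01. Scaling to equal totals moved the median gene to 0.14.

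**Figure D4:**
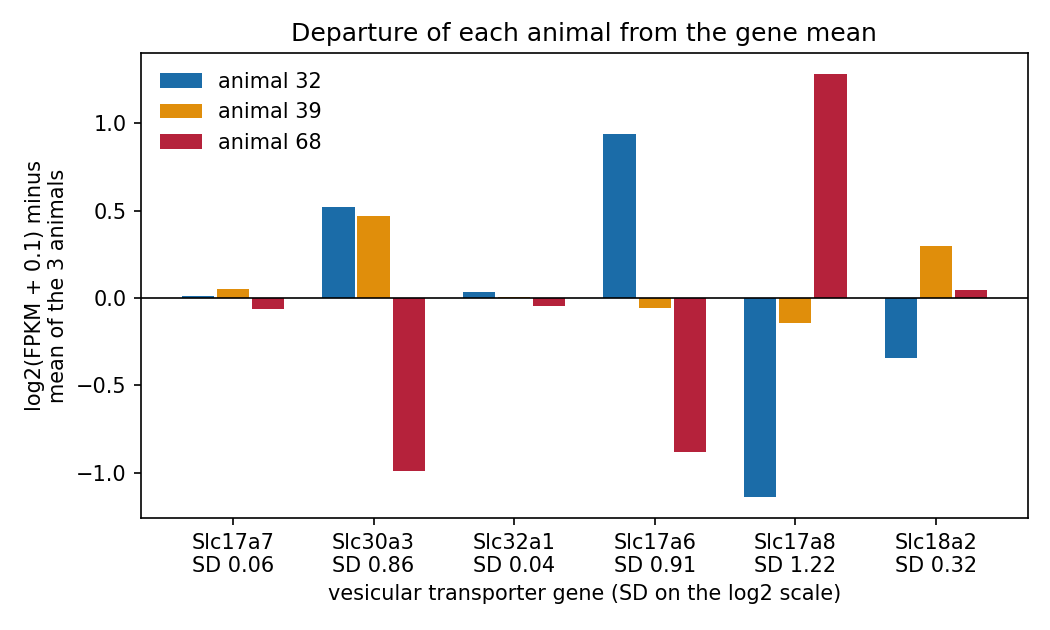
Departure of each animal from the mean of the 3 animals on the log2(FPKM + 0.1) scale for the 6 transporter genes, with the SD under each name. Slc17a7 and Slc32a1 stay within 0.06 of their means, and animal 68 lies at -0.99 for Slc30a3, -0.88 for Slc17a6 and 1.28 for Slc17a8.

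Marker genes of several cell types and regions differed between the same animals. Of the 8 glutamatergic neuron genes other than Slc17a7, 6 were lower in animal 68 than in animal 32, whereas 57.1% of all genes that averaged 1 FPKM or more were higher in animal 68. The lower genes included Tbr1 (43.7, 36.0 and 15.9 FPKM in animals 32, 39 and 68) and Cux2 (27.0, 16.8 and 7.24), transcription factors of cortical projection neurons. The 2 higher genes were Neurod6 (47.3, 78.4 and 107 FPKM) and Fezf2 (12.6, 16.1 and 12.8). The 8 genes summed to 1872, 1821 and 1277 FPKM. Cux2 had its highest value in animal 32 and its lowest in animal 68, as Slc17a6 did. The 10 thalamic genes summed to 38.7, 41.4 and 34.8 FPKM, led by Ramp3, Prkcd, Calb2 and Zic1, and Gbx2 was listed at 0 in every animal. The sum was highest in animal 39 and Slc17a6 in animal 32. Among these genes, 1 was highest in animal 32, Ntng1 (6.28, 4.71 and 3.53 FPKM), which ordered the animals as Slc17a6 did. The part of these genes in the Slc17a6 level was not tested.

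All 9 oligodendrocyte, 8 astrocyte, 6 microglial and 11 choroid plexus genes found were highest in animal 68, where Slc17a8 was highest and Slc30a3 and Slc17a6 were lowest. Among genes that averaged 1 FPKM or more, 46.7% were highest in animal 68 and 29.2% in animal 32. Ependymal genes summed to 19.6, 25.5 and 41.5 FPKM, hippocampal genes to 95.4, 136 and 133 FPKM and endothelial genes to 111, 97.5 and 89.2 FPKM. Hypothalamic and basal forebrain genes summed to 2.72, 3.68 and 5.09 FPKM, with Oxt and Otp listed at 0. The part of these differences in the levels of Slc30a3, Slc17a6 and Slc17a8 was not tested.

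The machinery on which the transporters depend was abundant, and most of its genes were lower in animal 68 than in animal 32. Over all genes that averaged 1 FPKM or more, 57.1% were higher in animal 68 than in animal 32. All 16 proton pump genes had a mean of at least 1 FPKM, led by Atp6v0c (627 ± 46.5, SD, n = 3), Atp6v1e1 (265 ± 18.6), Atp6v0d1 (262 ± 4.43) and Atp6v1b2 (251 ± 23.2), and 15 of the 16 were lower in animal 68 than in animal 32. Syp, the vesicle protein synaptophysin, measured 606, 560 and 465 FPKM. Slc17a7 stood at 0.859, 0.959 and 1.06 times the level of Syp in animals 32, 39 and 68, and was thus of the same order as a protein carried by nearly all synaptic vesicles. Of the 13 vesicle membrane genes, 11 were lower in animal 68 than in animal 32, among them Syt2, a calcium sensor of release, at 27.5, 16.3 and 10.5 FPKM. Of 7 adaptors and partners of the transporters, 6 were lower in animal 68 than in animal 32. Stx1a, a plasma membrane protein of vesicle fusion, measured 162, 127 and 52.5 FPKM, a log2 ratio of animal 68 to animal 32 of -1.63 beside the -1.51 of Slc30a3. Nsf, which takes fusion complexes apart, measured 359, 294 and 271 FPKM, and Sh3gl2, an endophilin, 159, 159 and 153 FPKM.

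Other members of the SLC17 and SLC18 families were low or moderate. Slc17a5, the lysosomal sialic acid exporter sialin, measured 8.04, 7.79 and 7.17 FPKM, and Slc18b1, a vesicular polyamine transporter, 5.20, 5.95 and 8.75. Slc17a9, the vesicular nucleotide transporter, measured 0.504, 0.511 and 0.522 FPKM. Slc17a1 and Slc17a3, known from kidney and liver, were listed at 0 in every animal. Slc17a6 thus lay below the lysosomal relative Slc17a5 in 3 of 3 animals. Among further vesicle proteins, Sv2a (157, 143 and 109 FPKM), Slc6a17 (143, 116 and 84.1), a vesicular transporter of neutral amino acids, and Sv2b (104, 91.4 and 88.3) were highest. Slc10a4, known from cholinergic and monoaminergic vesicles, measured 0.552, 1.13 and 2.33 FPKM and ordered the animals as Slc17a8 did.

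The genes whose pattern over the 3 animals was most like that of each variable member were found by the root mean square difference of centred log2(FPKM + 0.1) values among genes that averaged 1 FPKM or more. With 3 libraries this measure is loose. Closest to Slc17a8 were Tekt1 (1.65, 3.39 and 9.21 FPKM), Spag8 (0.946, 1.98 and 5.45) and Wdr66 (0.715, 1.48 and 4.16), at distances of 0.0018, 0.0038 and 0.017, and 25 genes lay within 0.1. Closest to Slc30a3 were Adamtsl5, Taf9 and Emx1, at 0.035, 0.036 and 0.043, with 19 genes within 0.1. Emx1, a transcription factor of the developing dorsal forebrain, measured 11.2, 10.4 and 3.60 FPKM. Closest to Slc17a6 were 7SK, AABR07021888.1 and Ptgfrn, at 0.050, 0.055 and 0.071, with 6 genes within 0.1. For the steady genes the measure picked out no small group, since 3615 genes lay within 0.1 of Slc17a7 (first Nop9, Zfp512 and Vps16) and 3851 of Slc32a1 (first Akap1, Zfp14 and Ndufa5). For Slc18a2, which rests on a few fragments, 241 genes lay within 0.1, first Rasal2, Zc3h12b and Mpped2.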

How the data were processed

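Per the labels, total RNA of motor cortex was purified with a DNase step and made into mRNA libraries. Per the labels, the authors counted fragments for each gene, normalized them and computed the deposited FPKM with a Perl script. Per the submitters' processing notes, HISAT2 2.0.4, StringTie 1.3.0 and the build Rnor_6.0 were used. Annotation release, strandedness and read length: not given in the sources used here. FPKM holds no counts, so no count test was run. Overlapping genes on opposite strands cannot be told apart, and errors of gene length or mapping are shared by all animals and lie outside the tests.

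Depth was inferred from genes with loci of at most 400 bases, where the most common product of value and span was taken as 1 fragment. This gave 16550241, 15460924 and 17670986 fragments for animals 32, 39 and 68, with 85.0, 86.6 and 82.0% of these genes within 0.02 fragments of a whole number, a share partly met by construction.

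For each member, the log2 ratio of FPKM + 0.1 of every gene to it within an animal was tested in limma 3.58.1 (R 4.3.3) with a trended prior, over 16413 genes above 0 in every animal, with Benjamini-Hochberg adjustment over all genes of the fit. The fit was tested on simulated data with a reference gene of median spread. That simulation did not cover references as variable as Slc30a3, Slc17a6 or Slc17a8. The rest used Python 3.11.15, pandas 2.3.3, numpy 2.4.6 and scipy 1.17.1. The p-values rest on these 3 animals only, with the variance of each ratio moderated towards a trend over all genes of the fit. Where the prior degrees of freedom were infinite, the variance came from that trend alone, not from the spread of the pair itself. For Slc30a3 over Slc17a8, for example, the SD of the 3 ratios was 2.03 and the SE used was 0.765. Pairs with Slc18a3 and the planned pairs of Slc18a2 with Slc6a4 and Slc6a3, listed at 0 in all animals, and Slc6a2, listed at 0 in animals 39 and 68, were not tested, which left 15 member pairs and 11 partner pairs.

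The members and the 24 gene lists were chosen with earlier results of these data known. Named genes are the members, their partner genes, up to 4 genes per list with the highest mean with those listed at 0, and the 3 genes nearest to each member. Other genes named (Tbr1, Cux2, Fezf2, Slc10a4, Adora2a, Drd1, Rgs9, Ntng1, Adarb2, Syt2, Tph1, Dbh, Hdc) were chosen after their values were seen. Values of a few genes in the lists are not reported here, but list counts and sums cover them. Promoter windows came from RefSeq, build GRCr8, where all 6 members matched by symbol.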

Additional observations from a re-analysis of the deposited data

How the results depend on the processing

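Other settings were a pseudocount of 1 or 0.01, no filter or one at a mean of 1 FPKM, a limma prior without a trend, 3 scalings and the loss of any 1 animal. The count of member pairs past the threshold was 13 of 15 and stayed between 12 and 13 with all animals, and between 11 and 15 with 1 animal left out. The count of partner pairs was 10 of 11 and lay between 7 and 11 with 1 animal left out. Without a filter it was 12 of 14, where the added pairs set Slc18a2 against genes listed at 0 in 1 animal or more and are no evidence of a difference. A prior with degrees of freedom held at 2.52, chosen after seeing the data, gave 13 and 10. The log2 ratio of Slc30a3 over Slc30a9 was -0.06 and ran from -0.31 to 0.44 with 1 animal left out, the positive value being that without animal 68, which held the low Slc30a3 value. The ratio of summed glutamate transporters to Slc32a1 ran from 16.0 to 16.3 and the Slc17a7 share from 99.1 to 99.3% with 1 animal left out. Mean levels moved by less than their SD under each scaling. The loss of 1 of 3 values cannot move a mean by its SD, so that comparison says nothing about stability; the mean of Slc17a8 was 1.29 FPKM with all animals and 0.651 FPKM without animal 68, and that of Slc17a6 was 2.89 FPKM and 1.88 FPKM without animal 32. Depth limits Slc18a2, which rests on a few fragments. No paired analysis was possible because the animals form 1 group, so no groups could be paired by replicate; ratios between genes were taken within animals throughout.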
